A study of Mus musculus with 9 samples.

Results

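Crypt base columnar cells are the slender dividing cells that sit between Paneth cells at the bottom of the intestinal crypt, and they are marked by the R-spondin receptor gene Lgr5. A fixed list of 10 of their marker genes was followed here: Lgr5, Lrig1, Tnfrsf19, Rgmb, Ascl2, Olfm4, Smoc2, Igfbp4, Fstl1 and Slc12a2. The members were the rows of the deposited expression table with these symbols, and all 10 were found among its 24930 gene symbols. All 10 passed the filter on low values, at least 1 FPKM (fragments per length of transcript and size of library) in at least 3 of the 9 libraries, which left 12097 genes for testing. Fstl1 passed it through mutant libraries, since none of its control values reached 1 FPKM.

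The RNA came from mouse crypt epithelium, selected by poly(A), in 3 groups of 3 libraries, with 1 library each at day 8, day 9 and day 10 after 1 allele of β-catenin was switched to its mutant form. Set A is titled Bcathet and set B is titled Cdx2het_Bcathet, and the third group is titled Control. The library names give the Cdx2 allele to the other set, CDX2HET_EXON3 for set A and EXON3 for set B, so which set carries it cannot be told from the labels and the sets are named neutrally. Both sets carry the heterozygous gain-of-function β-catenin allele. The Cre driver, the genotype of the controls, and the age and number of mice behind a library were not given in the sources used here, so a p-value reflects how far these libraries scatter, which may be technical in part. The day serves as the replicate number. In bulk samples fewer cells of a type and less RNA per cell cannot be told apart.

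In the intestine, β-catenin carries the WNT signal to TCF/LEF factors on DNA, and stem cells at the crypt base depend on that signal. R-spondins bind LGR receptors and hold back the ubiquitin ligases RNF43 and ZNRF3, which otherwise remove WNT receptors from the cell surface. Several members of the list, Lgr5 and Ascl2 among them, are known WNT targets.

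Since FPKM is a level per length, it may be compared between genes. At 1 FPKM a library held 16.7 to 19.1 fragments per kilobase of transcript, as read from the spacing of low values, and FPKM totals ran from 624923 to 755802. Sums of 6 epithelial markers were alike, at 3739 to 4103 FPKM in set A, 3936 to 4196 FPKM in set B and 3660 to 4136 FPKM in Control. The set B library of day 9 stood apart from the other mutant libraries: on principal component 1, which held 43.5% of the variance, its score was -19.07, against 2.57 to 29.96 in the other 5 mutant libraries and -22.7 to -21.61 in Control. That library also held 0.1 FPKM of Xist and a sum of 41.7 FPKM over 4 Y-linked genes, whereas the other 8 held 27.0 to 39.4 FPKM of Xist and Y-linked sums of 0 to 0.047 FPKM. By these genes it was male and the other 8 were female, so sex and library cannot be told apart. Each result is therefore given with and without it wherever its call or direction depends on it.

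Promoters of 3 members carry contrasts described below, and are shown for that reason: Igfbp4 was the member that rose, 1 of the promoters of Tnfrsf19 held a TCF/LEF core, and Olfm4 was the most abundant member and lay lower on average in the mutant sets. They are the RefSeq promoters of build GRCm38.p6, 250 bases before to 50 bases after the gene start, read 5′ to 3′ along the gene. Igfbp4 lies at chr11:99040994-99041293 on the plus strand, Tnfrsf19 at chr14:61037938-61038237 on the minus strand and Olfm4 at chr14:80000052-80000351 on the plus strand. Capitals mark the core, searched as CTTTGA on either strand (TCAAAG on the other).
Igfbp4: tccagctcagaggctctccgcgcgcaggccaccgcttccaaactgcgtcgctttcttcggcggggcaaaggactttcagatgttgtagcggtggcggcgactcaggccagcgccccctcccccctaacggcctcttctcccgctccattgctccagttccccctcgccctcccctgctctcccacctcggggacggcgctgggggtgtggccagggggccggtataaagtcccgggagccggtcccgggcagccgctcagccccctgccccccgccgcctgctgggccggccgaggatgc
Tnfrsf19: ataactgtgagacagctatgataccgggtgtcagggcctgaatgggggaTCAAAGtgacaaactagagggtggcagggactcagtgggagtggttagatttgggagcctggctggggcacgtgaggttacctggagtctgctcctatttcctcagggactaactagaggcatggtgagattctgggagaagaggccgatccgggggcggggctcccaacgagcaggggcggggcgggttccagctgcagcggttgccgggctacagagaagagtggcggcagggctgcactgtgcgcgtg
Olfm4: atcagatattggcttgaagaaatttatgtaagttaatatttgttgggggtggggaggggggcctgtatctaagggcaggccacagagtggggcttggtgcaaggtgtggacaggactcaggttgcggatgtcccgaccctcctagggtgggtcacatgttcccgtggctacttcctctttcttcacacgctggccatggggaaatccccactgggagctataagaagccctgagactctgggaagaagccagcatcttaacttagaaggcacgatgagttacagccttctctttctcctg
The table matched 7 of the 10 members with 10 promoters, and the core was present in 1 of those 10, the Tnfrsf19 promoter shown, where it begins 201 bases before the gene start. The other Tnfrsf19 promoter in the table, at chr14:61046806-61047105, did not hold it. Among all 32851 promoters of this length, 16.0% held it. A match describes letters and not a bound site.

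In Control, Olfm4 was by far the most abundant member, followed by Slc12a2 and Smoc2, then Rgmb and Lrig1, Igfbp4, Ascl2, Lgr5, Tnfrsf19 and Fstl1. Rgmb and Lrig1 overlapped between libraries in Control and the other neighbours did not. In set A, Igfbp4 stood between Slc12a2 and Smoc2 and overlapped with both, Rgmb and Lrig1 overlapped, and Lgr5 overlapped with Ascl2 above it and Tnfrsf19 below it. In set B, Igfbp4 came next after Olfm4 and overlapped with Slc12a2, and from Lrig1 down through Rgmb, Lgr5, Ascl2, Tnfrsf19 and Fstl1 each gene overlapped with the next. Each of these overlaps in set B came from its day 9 library. On days 8 and 10 of set B no neighbours overlapped, with Lgr5 at 20.1 and 18.1 FPKM and Ascl2 at 17.4 and 15.9 FPKM.

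**Figure D1:**
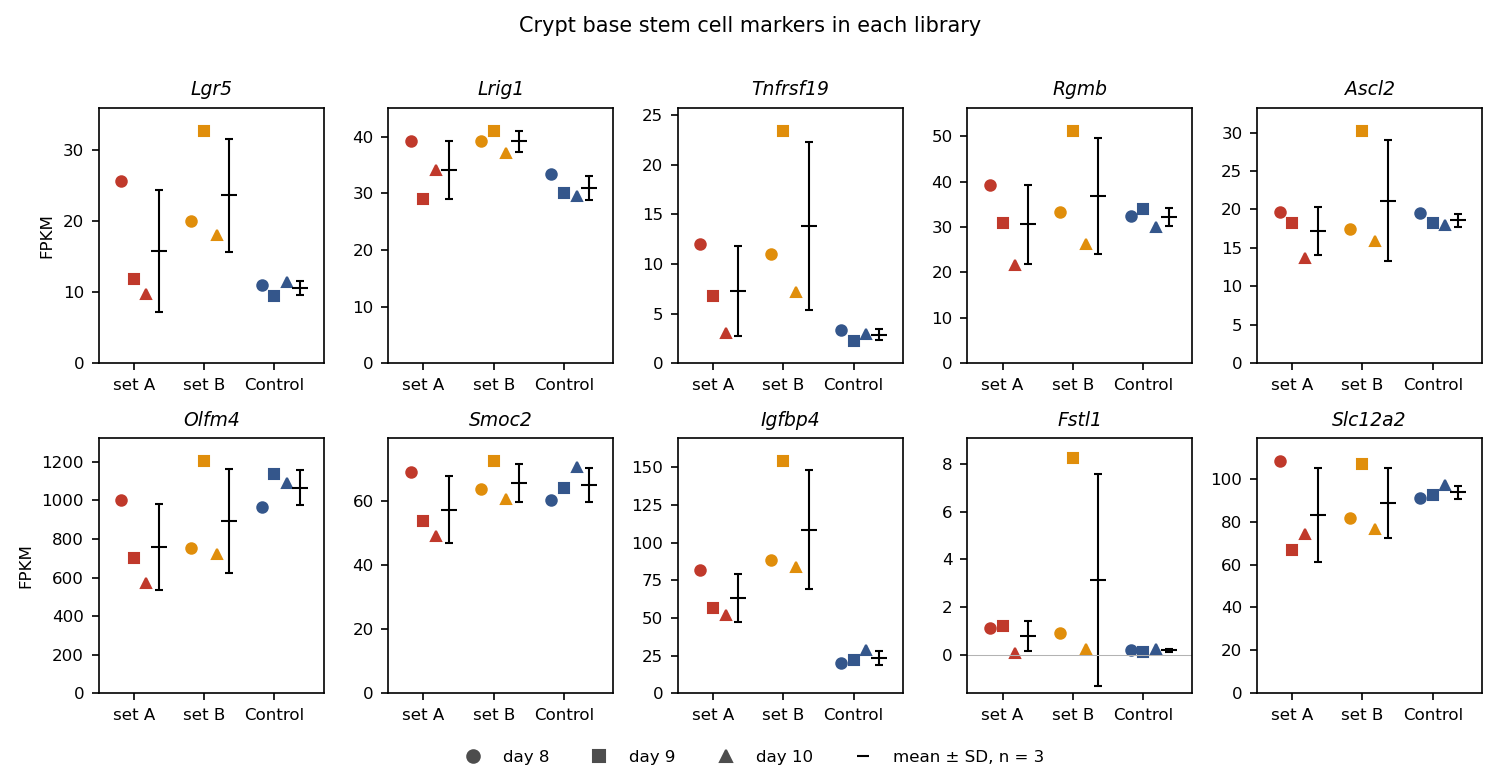
FPKM (vertical axes, linear, each gene on its own scale) of the 10 members in set A, set B and Control, with 1 point per library marked by day and a bar for the mean ± SD of 3 libraries. The 6 mutant libraries of Igfbp4 all lie above its 3 control libraries, and the day 9 library of set B is the highest of 9 for every member but Slc12a2; the bar of Fstl1 in set B runs below 0, since its SD exceeds its mean.

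Against Control, 1 of the 10 members passed the test when both mutant sets were pooled, and it was Igfbp4, which codes for a secreted protein that binds insulin-like growth factors. Lgr5, Tnfrsf19, Lrig1 and Fstl1 had higher means in both mutant sets without passing, Olfm4 had a lower mean in both without passing, and Ascl2, Rgmb, Smoc2 and Slc12a2 showed estimated differences near 0. Over all genes tested, 1.16% were called in either direction, 0.513% higher and 0.645% lower, by limma on log2(FPKM + 1) with Benjamini-Hochberg adjustment over 12097 genes and a threshold of 0.05. The members' median log2 difference was 0.12 with 7 of 10 above 0, and the median of all tested genes was -0.0017. Without the set B library of day 9 the background was higher, at 8.22% of genes. Igfbp4 was again the 1 member called, and the members' median was 0.051 with 5 of 10 above 0.

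Lgr5, the receptor at the head of the list, was at 25.6, 11.9 and 9.79 FPKM on days 8, 9 and 10 in set A, at 20.1, 32.7 and 18.1 FPKM in set B, and at 11.0, 9.48 and 11.4 FPKM in Control. All 3 libraries of set B lay above Control, whereas set A overlapped it, its day 10 library lying between control values. Set B averaged 23.6 ± 7.88 FPKM and Control 10.6 ± 0.992 FPKM (SD, n = 3 each), a log2 difference of 1.04 ± 0.34 (SE, limma adjusted p = 0.197). Set A averaged 15.8 ± 8.57 FPKM (SD, n = 3), a log2 difference from Control of 0.42 ± 0.34 (limma adjusted p = 0.568). Over both sets the log2 difference was 0.73 ± 0.29 with a limma adjusted p of 0.213, so the higher mean of Lgr5 was not resolved from the spread between libraries. With the set B library of day 9 left out it was 0.61 ± 0.28 (SE, limma adjusted p = 0.218). The gene on the opposite strand that overlaps Lgr5, A930009A15Rik, was at no more than 0.272 FPKM.

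Lrig1, a transmembrane protein that holds back ERBB receptors and marks stem cells, was at 39.2, 29.0 and 34.2 FPKM on days 8, 9 and 10 in set A, at 39.3, 41.0 and 37.2 FPKM in set B, and at 33.4, 30.0 and 29.5 FPKM in Control. It varied least of the members in set B, where the mean was 39.2 ± 1.91 FPKM against 31.0 ± 2.15 FPKM in Control (SD, n = 3 each). The libraries of set B did not overlap with Control, yet the log2 difference of 0.33 ± 0.11 had a limma adjusted p of 0.192. The gene span of Slc25a26, on the other strand, overlaps that of Lrig1, and Slc25a26 was at 5.49 to 7.42 FPKM. Whether their exons overlap was not examined, so it is not known if any reads could belong to either gene.

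Tnfrsf19, also called Troy, is a TNF receptor family member known as a WNT target in stem cells. It was at 12.0, 6.80 and 3.00 FPKM on days 8, 9 and 10 in set A, at 11.0, 23.4 and 7.16 FPKM in set B, and at 3.33, 2.26 and 2.98 FPKM in Control. Every library of set B lay above every control library, and in set A those of days 8 and 9 did while that of day 10 fell among the controls. For both sets together its log2 difference was 1.38 ± 0.42 (SE, limma adjusted p = 0.135). In set B alone it was 1.80 ± 0.49 (limma adjusted p = 0.15), and 1.37 ± 0.46 without the day 9 library (limma adjusted p = 0.132).

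Rgmb, a cell surface co-receptor for bone morphogenetic proteins, was at 39.2, 30.8 and 21.7 FPKM on days 8, 9 and 10 in set A, at 33.2, 51.1 and 26.3 FPKM in set B, and at 32.5, 33.9 and 30.0 FPKM in Control. Both mutant sets had libraries on either side of the controls. The log2 difference for both sets together was 0.02 ± 0.23 (SE, limma adjusted p = 0.975), and -0.11 without the set B library of day 9.

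Ascl2 is a transcription factor that WNT signals induce and that maintains the stem cell state. It was at 19.7, 18.3 and 13.7 FPKM on days 8, 9 and 10 in set A, at 17.4, 30.2 and 15.9 FPKM in set B, and at 19.5, 18.2 and 18 FPKM in Control. Apart from the set B library of day 9, the mutant libraries lay between 13.7 and 19.7 FPKM, around and below the controls. The log2 difference was 0.01 ± 0.20 (SE, limma adjusted p = 0.99), and it was -0.13 without that library.

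Olfm4, a secreted olfactomedin glycoprotein used to mark crypt base cells, was at 1003, 699 and 573 FPKM on days 8, 9 and 10 in set A, at 754, 1202 and 724 FPKM in set B, and at 964, 1139 and 1091 FPKM in Control. Of the 6 mutant libraries 4 lay below all controls, and the set B library of day 9 lay above them. The log2 difference for both sets together was -0.41 ± 0.21 (SE, limma adjusted p = 0.309), and without that library it was -0.52, also short of the threshold.

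Smoc2, which codes for a secreted calcium-binding matricellular protein, was at 68.9, 53.8 and 48.9 FPKM on days 8, 9 and 10 in set A, at 63.8, 72.3 and 60.6 FPKM in set B, and at 60.3, 64.0 and 70.7 FPKM in Control. The groups overlapped, and the log2 difference was -0.09 ± 0.11 (SE, limma adjusted p = 0.685). The antisense gene 4930474M22Rik overlaps Smoc2 and was at 0.66 to 2.86 FPKM.

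Igfbp4 was at 81.8, 56.4 and 52.3 FPKM on days 8, 9 and 10 in set A, at 88.3, 154 and 83.8 FPKM in set B, and at 20, 21.9 and 29.1 FPKM in Control. No mutant library overlapped with Control, and no library of set B overlapped with set A. Set A averaged 63.5 ± 16.0 FPKM, set B 109 ± 39.0 FPKM and Control 23.7 ± 4.80 FPKM (SD, n = 3 each). The log2 difference was 1.75 ± 0.23 for both sets together (SE, limma adjusted p = 0.0199) and 2.11 ± 0.27 for set B (limma adjusted p = 0.0208), while for set A it was 1.38 ± 0.27 (limma adjusted p = 0.0971). Of all tested genes 0.628% were called for set B (0.389% higher and 0.24% lower) and 0.215% for set A (0.124% higher and 0.0909% lower).

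The call on Igfbp4 had little room. With the day as a replicate block the limma adjusted p was 0.0574 for both sets together and 0.0607 for set B, and leaving out the control library of day 8, 9 or 10 gave 0.0758, 0.102 and 0.0675 for both sets together. For set B the call was also lost without any control library (limma adjusted p from 0.058 to 0.0878) and without the set B library of day 8 or day 10 (limma adjusted p = 0.0581 and 0.0524). Without the set B library of day 9, the log2 difference was 1.61 for both sets together and 1.84 for set B, both called, and set A passed as well (limma adjusted p = 0.03). The shares of all tested genes called were then 3.94% for set B and 1.03% for set A.

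Fstl1, a secreted follistatin-like glycoprotein also made by mesenchymal cells, was the least abundant member. It was at 1.14, 1.22 and 0.0973 FPKM on days 8, 9 and 10 in set A, at 0.931, 8.24 and 0.275 FPKM in set B, and at 0.214, 0.128 and 0.264 FPKM in Control. A single library, set B of day 9, set its mean in set B, 3.15 ± 4.42 FPKM against 0.202 ± 0.0688 FPKM in Control (SD, n = 3 each). The log2 difference for both sets together was 0.88 ± 0.58 (SE, limma adjusted p = 0.424), and 0.46 ± 0.27 without that library (limma adjusted p = 0.307). With a pseudocount of 0.1 in place of 1 it was 1.76 ± 1.00 (SE, limma adjusted p = 0.35).

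Slc12a2, the basolateral sodium-potassium-chloride cotransporter enriched in crypts, was at 108, 66.9 and 74.0 FPKM on days 8, 9 and 10 in set A, at 81.6, 107 and 76.7 FPKM in set B, and at 91.1, 92.4 and 97.1 FPKM in Control. Its 3 controls lay close together inside the wider range of the mutant libraries. The log2 difference was -0.15 ± 0.16 (SE, limma adjusted p = 0.626).

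**Figure D2:**
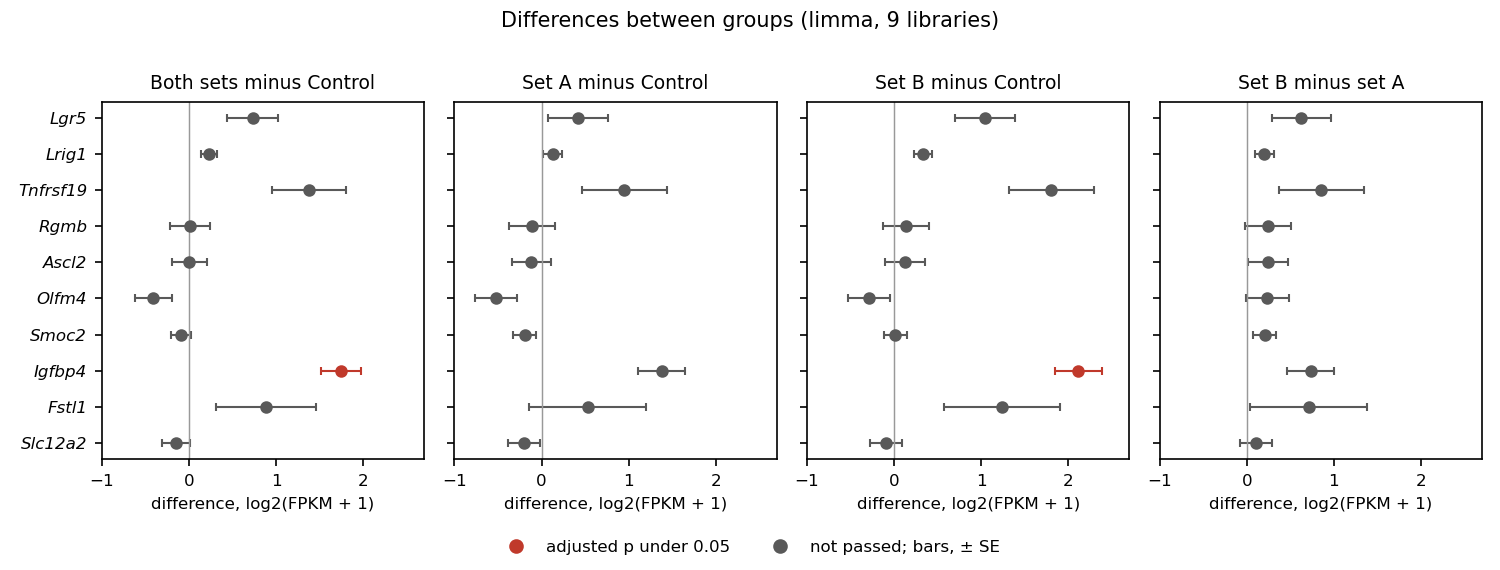
Difference in log2(FPKM + 1) between groups for each member (horizontal axis; points, limma estimates from all 9 libraries; bars, ± SE), with members that passed an adjusted p of 0.05 in red. Igfbp4 is red for both sets minus Control, at 1.75, and for set B minus Control, at 2.11, and no member is red for set A minus Control or for set B minus set A.

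Counting libraries that do not overlap, 1 of the 10 members, Igfbp4, lay above Control in all 6 mutant libraries and 0 lay below, beside 5.19% and 7.37% of all tested genes. In set B, 5 of the 10 members lay above Control in every library, namely Lgr5, Lrig1, Tnfrsf19, Igfbp4 and Fstl1, where 9.81% of all tested genes did. Fstl1 passed the filter through mutant libraries, so its place in this count was favoured by the filter, and its lowest value in set B was 0.275 FPKM, against a highest value of 0.264 FPKM in Control. In set A, 1 of 10 did, Igfbp4, beside 12% of all tested genes. No member lay below Control in every library of either set, beside 12.5% of tested genes in set B and 13% in set A.

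The 2 mutant sets were compared directly as well. The log2 estimates of set B minus set A were above 0 for all 10 members, from 0.11 to 0.85 with a median of 0.25, but limma called no member and 0% of all genes. Of all 12097 tested genes, 6290 had an estimate above 0. At an unadjusted p under 0.05 in limma, 1 member and 376 of 12097 genes passed. The member was Igfbp4, at a log2 difference of 0.74 ± 0.27 (SE) with an adjusted p of 1 in limma. Without the set B library of day 9, 6 of the 10 estimates were above 0 and their median was 0.07. Igfbp4 was also the 1 member of 10 whose libraries were higher in set B than in set A without overlap, as were 3.18% of tested genes, and 0 members were lower without overlap, beside 3.05%.

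Within the mutant sets, many members had their highest or lowest level in the same library. The set B library of day 9 was the highest of all 9 for 9 of the 10 members, and it was the highest for 12.7% of all tested genes. Set A of day 10 was the lowest library for 5 members, Rgmb, Ascl2, Olfm4, Smoc2 and Fstl1, and for 12.1% of tested genes. Within set A the day 8 library was the highest for 9 of 10 members, beside 30% of tested genes, and within set B the day 10 library was the lowest for 10 of 10, beside 30.8%. In Control no library stood out in this way: the libraries of days 8, 9 and 10 were the highest for 3, 2 and 5 members and the lowest for 4, 3 and 3.

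**Figure D3:**
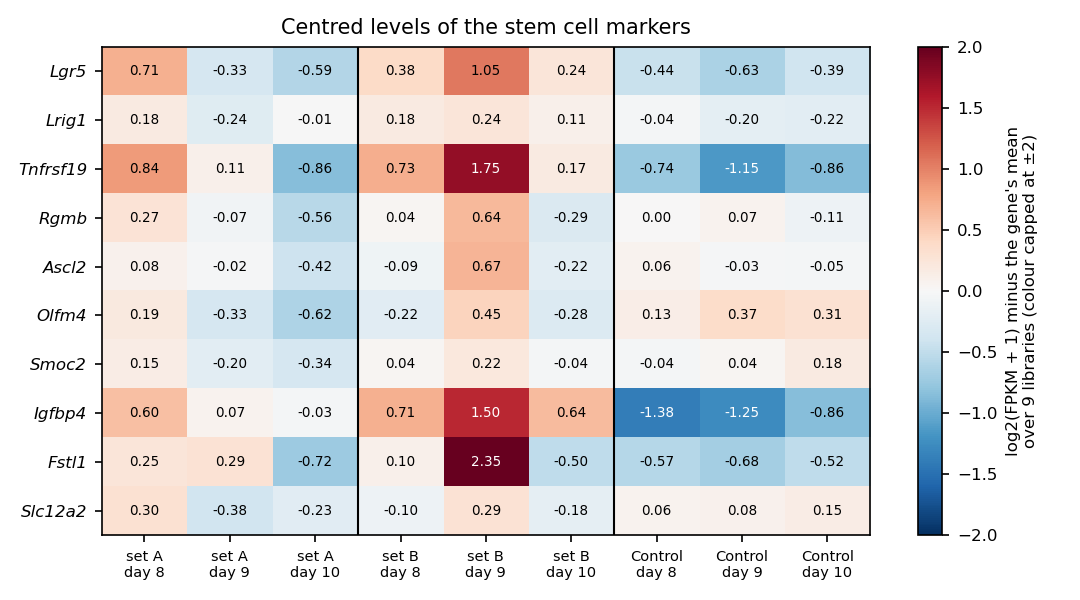
Level of each member in each library as log2(FPKM + 1) minus the gene's own mean over 9 libraries (colour and printed value, capped in colour at ±2). The set B library of day 9 is the reddest column, reaching 2.35 for Fstl1 and 1.75 for Tnfrsf19, and Igfbp4 is at -1.38, -1.25 and -0.86 in Control on days 8, 9 and 10.

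Across days 8 to 10, 1 slope per gene was fitted for all groups in common. It was below 0 for all 10 members, with a median of -0.12 log2 units per day, beside a median of 0.0075 over all tested genes. Of all 12097 tested genes, 6680 had a slope above 0. In both mutant sets all 10 members were lower on day 10 than on day 8, a count not worked out for all tested genes. Control did not share this fall: Lgr5, Olfm4, Smoc2, Igfbp4, Slc12a2 and Fstl1 were higher on day 10 there, and Ascl2, Rgmb, Tnfrsf19 and Lrig1 lower. Limma called no member and 0% of genes for the slope, and at an unadjusted p under 0.05 it passed 0 members and 390 genes. Among the steeper slopes were Tnfrsf19 at -0.40 ± 0.21, Lgr5 at -0.23 ± 0.16 and Rgmb at -0.21 ± 0.12 log2 units per day (SE, limma adjusted p = 0.959 for each). Without the set B library of day 9, 3 members and 675 genes passed the unadjusted threshold, the members being Ascl2, Rgmb and Tnfrsf19. With 1 library per group and day, a day and a library cannot be told apart.

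Ratios between members inside 1 library do not depend on how libraries were scaled to each other. They were chosen after the values were seen and carry no test. How many other pairs of genes separate the groups in the same way was not worked out. Lgr5 amounted to 2.55%, 1.70% and 1.71% of Olfm4 on days 8, 9 and 10 in set A, to 2.67%, 2.72% and 2.51% in set B, and to 1.14%, 0.833% and 1.04% in Control. Every mutant library was above every control library in this ratio, although the day 9 library of set B and the others differed widely in the level of both genes. Igfbp4 amounted to 119%, 105% and 107% of Smoc2 in set A, to 138%, 212% and 138% in set B, and to 33.2%, 34.1% and 41.2% in Control. Ascl2 as a share of Olfm4 was at 1.96% to 2.62% in set A, 2.19% to 2.51% in set B and 1.60% to 2.02% in Control. In this ratio set B lay above Control, and set A overlapped with Control through its day 8 library only. Olfm4 alone made up 69.0% to 71.8% of the summed FPKM of the members in set A, 67.9% to 69.8% in set B and 78.0% to 80.7% in Control.

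**Figure D4:**
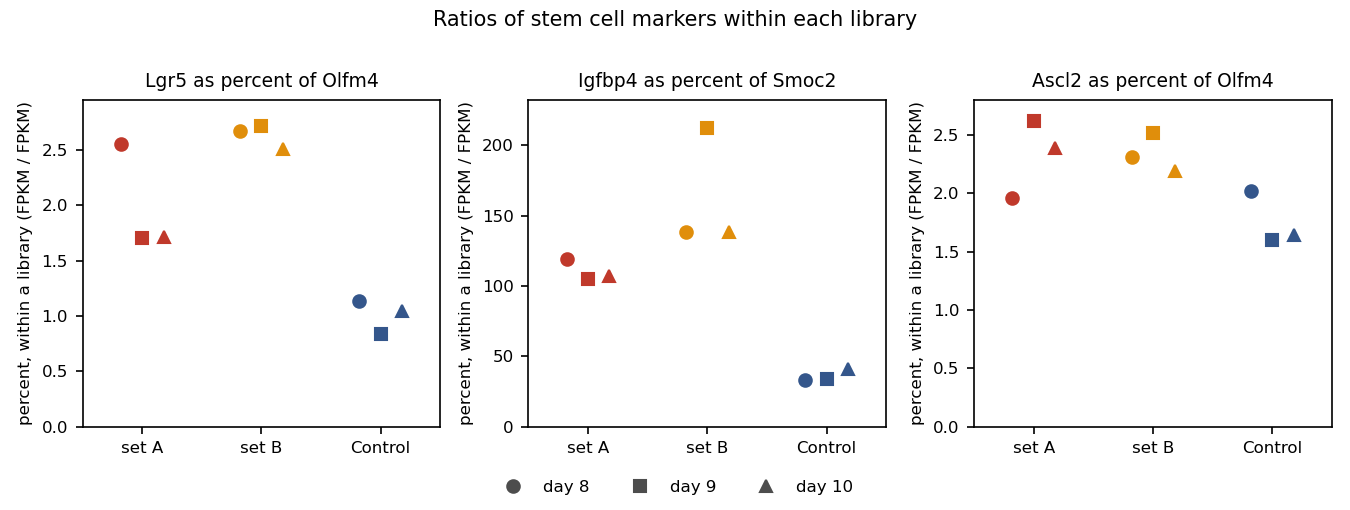
Ratio of the FPKM of 2 members within each library, in percent (vertical axes, from 0), for set A, set B and Control, with 1 point per library marked by day. Lgr5 over Olfm4 and Igfbp4 over Smoc2 are higher in all 6 mutant libraries than in the 3 controls, and Ascl2 over Olfm4 overlaps between set A and Control.

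Fstl1 and Igfbp4 are also made by stromal fibroblasts, and the markers of those cells are given beside them and beside Tnfrsf19. Of 10 fibroblast markers, 2 passed the filter, Dcn and Vim, and neither was called. Dcn had a log2 difference of 0.97 ± 0.38 for both sets together (SE, limma adjusted p = 0.194) and passed the filter through mutant libraries, its highest control value being 0.0319 FPKM. Vim had a log2 difference of -0.18 ± 0.34 (SE, limma adjusted p = 0.794). The sum over all 10 ran from 3.21 to 12.5 FPKM in set A, from 4.54 to 19.2 FPKM in set B and from 6.17 to 7.18 FPKM in Control. Without Vim, which other cells also make, the other 9 summed to 5.59, 6.90 and 0.81 FPKM on days 8, 9 and 10 in set A, to 1.87, 7.80 and 0.461 FPKM in set B, and to 0.467, 0.572 and 0.323 FPKM in Control, where 2 to 5 of the 9 were at 0. These 9 did not all go the same way. Pdgfrb averaged 0.184 FPKM in set A, 0.219 FPKM in set B and 0.288 FPKM in Control. Dpt averaged 0.048, 0.055 and 0.044 FPKM in the same order. The part of fibroblast RNA in the levels of Fstl1, Tnfrsf19 and Igfbp4 was not tested. In the 2 mutant libraries of day 10, with fibroblast sums of 0.81 and 0.461 FPKM, Igfbp4 was at 52.3 FPKM in set A and 83.8 FPKM in set B, and Fstl1 was at 0.0973 and 0.275 FPKM. All 6 endothelial markers and all 4 glial markers stayed under 1 FPKM in all 9 libraries.

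**Figure D5:**
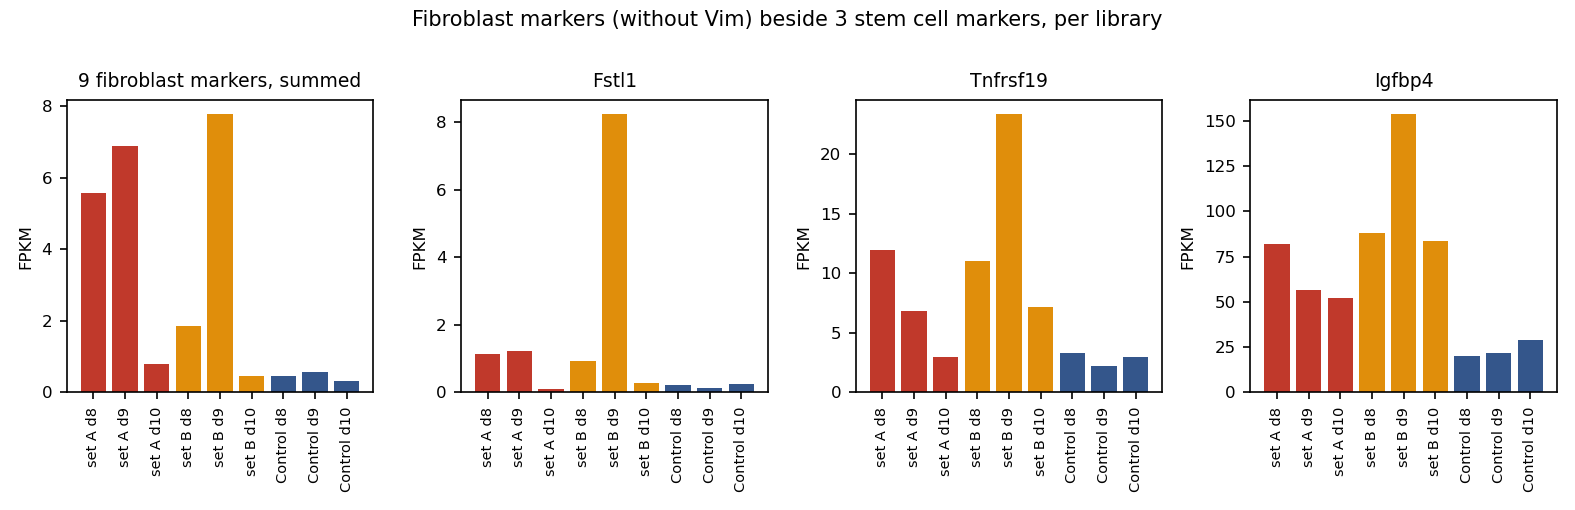
FPKM (vertical axes, from 0) in each of the 9 libraries for the sum of 9 fibroblast markers without Vim and for Fstl1, Tnfrsf19 and Igfbp4, in set A, set B and Control. The sum and all 3 genes are highest in the set B library of day 9, and in the day 10 libraries the sum is 0.81 FPKM in set A and 0.461 FPKM in set B and Igfbp4 is at 52.3 FPKM in set A and 83.8 FPKM in set B.

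Markers of Paneth cells, the neighbours of the stem cells, had a lower sum in every mutant library than in any control. The 8 of them summed to 15844 to 30294 FPKM in set A, to 31134 to 37012 FPKM in set B and to 55759 to 93388 FPKM in Control. The sum follows its most abundant genes, with Defa24 averaging 21729 FPKM and Defa30 12662 FPKM in Control. Gene by gene, 7.37% of all tested genes lay below Control in every mutant library. For both sets together 1 of the 8 had an estimate above 0, as did 6017 of all 12097 tested genes. For both sets together 4 of the 8 fell, Lyz1, Defa24, Defa30 and Ang4, beside 0.645% of all tested genes. Without the set B library of day 9, 5 of the 8 fell, Defa17 joining, beside 437 of all 12097 tested genes. Their part in the levels of the stem cell markers was not tested.

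Of the 8 genes of the R-spondin module around Lgr5, 3 were tested, 0 passed by limma and 2 had an unadjusted p under 0.05, which 2537 of all 12097 tested genes also had. All 4 ligand genes, Rspo1 to Rspo4, and the receptor gene Lgr6 stayed under 1 FPKM in all 9 libraries, and Rspo2 was listed at 0 in each. The related receptor gene Lgr4 was more abundant than Lgr5, at 71.8 ± 10.6 FPKM in set A, 72.7 ± 10.9 FPKM in set B and 48.4 ± 3.97 FPKM in Control (SD, n = 3 each), with a log2 difference of 0.56 ± 0.12 for both sets together (limma adjusted p = 0.0719). Rnf43, which codes for a ligase that WNT signals induce, was at 29.6 ± 3.30 FPKM in set A, 35.9 ± 13.5 FPKM in set B and 21.9 ± 1.42 FPKM in Control (SD, n = 3 each), with a log2 difference of 0.53 ± 0.19 (limma adjusted p = 0.169). Its partner Znrf3 showed a log2 difference of -0.03 (limma adjusted p = 0.921). Neither Lgr4 nor Rnf43 passed over all 9 libraries, and both did without the set B library of day 9, at log2 differences of 0.63 ± 0.10 and 0.38 ± 0.08 (SE, limma adjusted p = 0.0185 and 0.0324). Without that library 8.22% of all tested genes were called.

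Of 24 other genes of the crypt base signature, all tested, 1 rose and 0 fell for both sets together, beside 0.513% and 0.645% of all tested genes. Of the 24, 11 had an estimate above 0, and their median was -0.07 over all 24. At an unadjusted p under 0.05, 10 of them passed, as did 2537 of all 12097 tested genes. The gene that rose was Gkn3, a secreted gastrokine family member, at 31.5, 28.2 and 20.2 FPKM on days 8, 9 and 10 in set A, at 46.2, 66.9 and 60.6 FPKM in set B, and at 17.7, 15.1 and 17.4 FPKM in Control. All mutant libraries lay above the controls, as for 5.19% of all tested genes. Those of set B lay above those of set A, as for 3.18%. The log2 difference was 1.17 ± 0.16 for both sets together (SE, limma adjusted p = 0.0192) and 1.72 ± 0.18 for set B (limma adjusted p = 0.00856). Without the set B library of day 9, 4 of the 24 rose, with Sp5, Soat1 and Ephb3 joining Gkn3, and 2 fell, Vdr and Zbtb38. Of all tested genes 8.22% were then called in either direction.

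WNT target genes were tested for 10 of 12, and 0 passed by limma for both sets together, 5 did at an unadjusted p under 0.05, where 2537 of all 12097 genes did, and 9 had estimates above 0. Their median was 0.40, and 0.26 without the set B library of day 9. Axin2, the feedback inhibitor that serves as a general WNT readout, was at 47.1 ± 9.44 FPKM in set A, 56.3 ± 19.1 FPKM in set B and 37.7 ± 3.41 FPKM in Control (SD, n = 3 each), a log2 difference of 0.41 ± 0.20 (limma adjusted p = 0.284). With that day 9 library of set B left out, 2 of the 10 rose, Notum and Tcf7l2, and 1 fell, Bambi, where 8.22% of all tested genes were called. Notum passed the filter through mutant libraries, its highest control value being 0.22 FPKM, so its call was favoured by the filter. Of 6 tested genes linked to reserve stem cells 0 passed by limma, 1 did at an unadjusted p under 0.05, the level that 2537 of all 12097 genes reached, and the median was 0.03. Prox1 of that list, a homeobox factor, passed when the day 9 library of set B was left out, at a log2 difference of 0.67 ± 0.16 (SE, limma adjusted p = 0.0457). In that setting 8.22% of all tested genes were called. Prox1 passed the filter through mutant libraries, its highest control value being 0.534 FPKM, so its call was favoured by the filter.

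Likeness of profiles was measured as the root mean square difference of log2(FPKM + 1), each gene centred on its own mean over the 9 libraries, among 7814 genes with a mean of at least 3. The nearest to Lgr5 were Chga at 0.212, Tnfrsf12a at 0.263, Marcksl1 at 0.282, Pla2g2f at 0.291 and Acot1 at 0.304. Chga, the chromogranin of enteroendocrine cells, was at 119, 64.0 and 46.0 FPKM on days 8, 9 and 10 in set A, at 65.3, 131 and 62.6 FPKM in set B, and at 50.2, 48.4 and 51.3 FPKM in Control. Members were measured without that limit on the mean, which Tnfrsf19 and Fstl1 did not reach. Among the members, Tnfrsf19 lay nearest to Lgr5, at 0.405, and Olfm4 farthest, at 0.586. The genes nearest to Olfm4 were Nfic at 0.0996, Selenoh at 0.117, Fam171a1 at 0.119, Cnn3 at 0.123 and Dock11 at 0.133, and its nearest member was Slc12a2 at 0.191. These are descriptions over 9 libraries that share their processing, and they carry no test.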

How the data were processed

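RNA was selected by poly(A) and sequenced in pairs of reads on an Illumina instrument, per the labels' protocols. Per the submitters' processing notes, DESeq2 1.40.1, kallisto 0.46.1 and build mm9 were used, with no step assigned to any of them. The sources used here state neither strand setting nor annotation. The table the authors deposited holds FPKM, a unit read from its values: they are not whole, and their smallest steps shrink with transcript length. Median ratios to the geometric mean over 15138 genes are 1.00276 in every library.

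FPKM + 1 was taken to log2 and tested with limma 3.58.1 (trend and robust), in R 4.3.3, over genes with at least 1 FPKM in 3 libraries, with Benjamini-Hochberg adjustment at 0.05. Fold changes on this scale understate those of low genes. The test was tested on simulated data of 12097 genes with 200 changed: it found 85% of those changed by log2 1 and 95.6% by log2 2, with 4.31% false calls. The simulation gave each gene the same spread in all groups, with independent noise and no library that stood apart. The real mutant libraries scattered more than the controls for many genes, Lgr5 among them, and 1 stood apart, so these rates need not hold here. Alternatives were other pseudocounts, filters, scaling, library weights, the day as a block and leaving out libraries. The named genes were all members, the R-spondin module, Axin2, up to 3 called genes per other list and the 5 nearest profiles of Lgr5 and Olfm4. Members and lists were chosen with earlier results of these data known. Promoters came from RefSeq tables of GRCm38.p6, another build than mm9, and overlapping genes from GENCODE M21.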

Additional observations from a re-analysis of the deposited data

Results flagged for a closer look

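Fstl1 in the set B library of day 9 stood apart from the other mutant libraries on the log2 scale, with a gap of 0.67 of the whole range of the 6 mutant libraries, above Dixon's 95% critical value for that number of samples. Of 20 such tests, of the highest and the lowest library for each of 10 genes, 1 was positive. The genes share their libraries, so the tests are not independent. The number that chance would give was not worked out, and 1 positive may be due to chance.

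The ratios of mutant to control FPKM on the same day ran in opposite directions on 2 days for 3 members, a difference that was not tested. Ascl2 was at 1.01 and 1.66 times the control of the same day on day 9 in set A and set B, and at 0.761 and 0.883 times on day 10. Smoc2 was at 1.14 times in set A and 1.06 times in set B on day 8, and at 0.693 and 0.858 times on day 10. Rgmb was at 1.21 times in set A and 1.02 times in set B on day 8, and at 0.723 and 0.876 times on day 10. With 1 library per group and day, the day and the library cannot be told apart.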

How the results depend on the processing

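For both sets minus Control, 140 genes were called, against 80 with no filter, 1438 with library weights and 17 to 994 when libraries were left out in turn, the highest count without the set B library of day 9. Scaling libraries to equal totals gave 133 higher and 36 lower, against 62 higher and 78 lower. For set A minus Control 26 were called, against 44 with weights, 16 with the day as a replicate block and 3 to 124 with libraries left out. For set B minus Control 76 were called, against 2035 with weights, 33 with the 2 groups fitted alone and 18 to 477 with libraries left out. For set B minus set A 0 were called, against 2 with a pseudocount of 0.1, 3 with weights and 0 to 1 with libraries left out.

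Of the members, 1 was called for both sets together, 2 with weights (Tnfrsf19 joining Igfbp4), 0 with the replicate block and 0 to 1 with libraries left out. For set B the 1 call became 4 with weights (Lgr5, Tnfrsf19, Lrig1, Igfbp4), 0 with the block, 0 with the groups alone and 0 to 1 with libraries left out, and for set A 0 became 0 to 1. Under weights Ascl2 turned to -0.055 and Rgmb to -0.011 for both sets, and Ascl2 to -0.054 and Smoc2 to -0.036 for set B.

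Leaving out libraries also turned signs, with ranges for both sets of -0.13 to 0.090 (Ascl2) and -0.11 to 0.13 (Rgmb), for set A of -0.21 to 0.033 (Ascl2) and -0.30 to 0.11 (Rgmb), and for set B of -0.060 to 0.072 (Smoc2), -0.15 to 0.30 (Ascl2) and -0.12 to 0.35 (Rgmb). For set B minus set A they were -0.037 to 0.31 (Slc12a2), -0.033 to 0.41 (Ascl2), -0.0076 to 0.46 (Rgmb) and -0.14 to 1.28 (Fstl1), and per day -0.11 to 0.019 (Smoc2), -0.14 to 0.087 (Igfbp4), -0.15 to 0.016 (Slc12a2) and -0.52 to 0.049 (Fstl1). The cause was not tested. Libraries of the same day did not all deviate together, with correlations of -0.236 to 0.615, so the block is a check and not a pairing. Levels under 1 FPKM, as for Fstl1 in Control, rest on fewer than the 16.7 to 19.1 fragments per kilobase that 1 FPKM stands for.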
